A study of Homo sapiens with 16 samples.

Results

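Open chromatin was compared between sorafenib-treated and DMSO-treated cells of a human liver cancer line, labelled Huh7, a long-established hepatocellular carcinoma culture. Sorafenib is an oral multikinase inhibitor given for advanced hepatocellular carcinoma, and DMSO is the solvent that control cells received. The assay was ATAC-seq, in which the transposase Tn5 inserts sequencing adapters where DNA is accessible, so that reads pile up over open regulatory DNA. The comparison used 4 of the series' 16 libraries, sorafenib replicates 3 and 4 and DMSO replicates 1 and 2; the RNA profiles of 3 sorafenib and 3 DMSO samples were read beside them. The labels give no dose, no duration and no separate cultures, so p-values measure only the spread between these libraries, which may be technical. As labelled, the 2 groups differ in the agent alone.

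The members were all peaks that the authors called, library by library, on chromosomes 1 to 22 and X. Peaks that shared at least 1 bp over the 4 libraries were merged, which gave 220915 regions. A region was called gained where both sorafenib libraries and no DMSO library held a peak, lost where both DMSO libraries and no sorafenib library held a peak, and shared where all 4 held a peak. By this rule 14131 regions were gained (6.40% of all), 26467 were lost (12%) and 75610 were shared (34.2%). The remaining regions were held by 1 library (75721) or by another mixture (28986). The RNA did not carry the hepatocyte pattern that the label leads one to look for: of 26 hepatocyte and Huh7 marker genes, 8 had no read in any of the 6 RNA samples, among them ALB, APOB and GPC3, and AFP averaged 1.56 normalized reads with sorafenib and 0.964 with DMSO. The summed level of that list lay between 7082 and 7499 normalized reads in sorafenib samples and between 18068 and 19000 in DMSO samples, most of it CPS1, the first enzyme of the urea cycle. No shared region stood at ALB, AFP, APOH or TTR, while 11 of the 26 list genes had one, among them APOB, APOA1 and CPS1. The APOB region had a fold enrichment of 5.42 and 6.16 with sorafenib, against 6.43 and 9.96 with DMSO. Keratin and mesenchymal genes were expressed: KRT8 averaged 22885 normalized reads with sorafenib and 31717 with DMSO, and VIM 3981 and 4552. Endothelial and leukocyte markers summed to at most 61.9 and 55.5 in sorafenib samples and at most 85.1 and 51.3 in DMSO samples. In such bulk samples, fewer cells of a type and less signal per cell cannot be told apart.

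Chromatin is open chiefly at promoters, the stretches around gene starts where RNA polymerase assembles, and at enhancers, which can lie far from any gene. Transcription factors read short DNA words there: NF-kB drives inflammatory genes, AP-1 dimers of FOS and JUN proteins answer growth factor and stress kinases, GC boxes are bound by SP and KLF factors, and metal response elements bind MTF1, the zinc sensor that switches on metallothioneins. Sorafenib blocks RAF and receptor tyrosine kinases, so genes of these classes, together with the DNMT1, MT1G, KLF4 and CA9 named in the series' title, were looked up one by one.

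The sequences of a few promoters are given from RefSeq on GRCh38.p14, from 250 bases before to 50 after the gene start on the gene's own strand. Positions count from the start, and capitals mark the matched letters on either strand. In the first 3, a region was gained and the capitals are the NF-kB word, GGGA and TTCC with any 2 bases between them, which 1.61% of all 34961 promoter windows hold. These 3 are among 14 gained windows with the word, and were chosen after their values were seen. CXCL10 (a chemokine that draws T cells, chr4:76023448-76023747, minus strand) has it at -177, GBP4 (an interferon-inducible guanylate-binding protein, chr1:89198893-89199192, minus strand) at -45 and SGPP2 (a sphingosine phosphate phosphatase, chr2:222423738-222424037, plus strand) at -139.
CXCL10: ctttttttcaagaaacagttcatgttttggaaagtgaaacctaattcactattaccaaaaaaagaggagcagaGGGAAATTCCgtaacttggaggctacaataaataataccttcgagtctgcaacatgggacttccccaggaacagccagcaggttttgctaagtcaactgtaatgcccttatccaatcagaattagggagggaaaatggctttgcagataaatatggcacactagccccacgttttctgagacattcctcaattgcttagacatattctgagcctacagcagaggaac
GBP4: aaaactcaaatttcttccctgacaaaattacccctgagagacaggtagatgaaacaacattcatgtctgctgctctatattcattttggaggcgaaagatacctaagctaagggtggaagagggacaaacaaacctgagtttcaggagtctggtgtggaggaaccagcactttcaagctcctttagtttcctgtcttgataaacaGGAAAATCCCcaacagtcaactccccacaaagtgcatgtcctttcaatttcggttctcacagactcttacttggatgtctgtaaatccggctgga
SGPP2: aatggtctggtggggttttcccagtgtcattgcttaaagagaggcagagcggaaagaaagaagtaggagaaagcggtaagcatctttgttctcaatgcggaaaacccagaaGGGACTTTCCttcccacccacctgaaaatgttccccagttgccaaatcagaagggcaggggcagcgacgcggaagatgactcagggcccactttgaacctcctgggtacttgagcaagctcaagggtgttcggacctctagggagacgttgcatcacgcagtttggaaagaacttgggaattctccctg

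The next 3 are metallothioneins, small zinc-binding proteins of 1 gene cluster on chromosome 16. The capitals are TGCNCNC, a loosened form of the metal response core that takes any base after TGC, and 55.9% of all promoter windows hold it. MT1B (chr16:56651636-56651935, plus strand) has 5 matches and gained a region, while MT2A (chr16:56608334-56608633, plus strand) has 8, MT1X (chr16:56682220-56682519, plus strand) has 4, and both had regions in all libraries. The MT1B matches at -232 and -24 have T after TGC, where the core proper has A or G. KLF4, a zinc finger factor named in the series' title (chr9:107489720-107490019, minus strand), is shown with its 4 GC boxes GGGCGG in capitals, a word that 45% of windows hold.
MT1B: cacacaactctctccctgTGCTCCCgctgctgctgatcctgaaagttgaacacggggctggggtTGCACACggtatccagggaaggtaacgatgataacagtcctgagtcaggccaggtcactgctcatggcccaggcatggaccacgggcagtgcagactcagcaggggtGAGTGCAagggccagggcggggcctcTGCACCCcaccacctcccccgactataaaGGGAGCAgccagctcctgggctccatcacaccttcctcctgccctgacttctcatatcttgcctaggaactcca
MT2A: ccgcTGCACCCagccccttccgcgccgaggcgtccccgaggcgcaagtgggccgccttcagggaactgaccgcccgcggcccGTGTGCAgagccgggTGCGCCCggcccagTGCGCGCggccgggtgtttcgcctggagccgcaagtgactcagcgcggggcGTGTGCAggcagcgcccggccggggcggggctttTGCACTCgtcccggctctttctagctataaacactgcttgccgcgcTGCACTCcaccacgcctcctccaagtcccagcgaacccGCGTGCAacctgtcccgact
MT1X: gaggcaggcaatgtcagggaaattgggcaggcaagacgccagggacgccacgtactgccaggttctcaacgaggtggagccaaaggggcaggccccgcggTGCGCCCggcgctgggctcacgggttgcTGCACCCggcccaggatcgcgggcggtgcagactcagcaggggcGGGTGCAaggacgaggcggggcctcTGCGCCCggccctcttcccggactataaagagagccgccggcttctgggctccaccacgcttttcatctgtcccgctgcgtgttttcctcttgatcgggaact
KLF4: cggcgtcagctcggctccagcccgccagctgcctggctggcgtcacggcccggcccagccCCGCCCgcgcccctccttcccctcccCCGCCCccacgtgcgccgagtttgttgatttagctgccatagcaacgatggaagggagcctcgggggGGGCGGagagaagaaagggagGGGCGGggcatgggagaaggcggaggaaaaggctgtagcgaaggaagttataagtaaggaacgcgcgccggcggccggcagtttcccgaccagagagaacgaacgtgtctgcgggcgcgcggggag

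Sorafenib peaks were narrower and weaker than DMSO peaks, at a like number. The peak lists held 139287 and 135665 peaks with sorafenib, against 131238 and 156757 with DMSO, and these ranges overlapped. They covered 54.5 and 52.3 Mb with sorafenib, against 71.9 and 76.9 Mb with DMSO, a mean of 53.4 ± 1.57 Mb with sorafenib and 74.4 ± 3.53 Mb with DMSO (SD, n = 2 each). The median peak was 285 and 280 bp wide with sorafenib, against 449 and 384 bp with DMSO, and its fold enrichment, the authors' ratio of stacked reads at the summit to the local background, was 5.51 and 5.56 with sorafenib, against 6.61 and 6.95 with DMSO. Both sorafenib libraries lay below both DMSO libraries in covered bases, width and enrichment, yet 2 against 2 cannot go below an exact two-sided permutation p of 0.33, which is what each of these gave. More peaks lay within 1 kb of a gene start with sorafenib, 13.5 and 14.2%, against 12.8 and 11.6% with DMSO. DMSO replicate 2 was the deepest library: its background pileup was 3.79, against 2.63 and 2.57 in the sorafenib libraries and 2.46 in DMSO replicate 1.

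**Figure D1:**
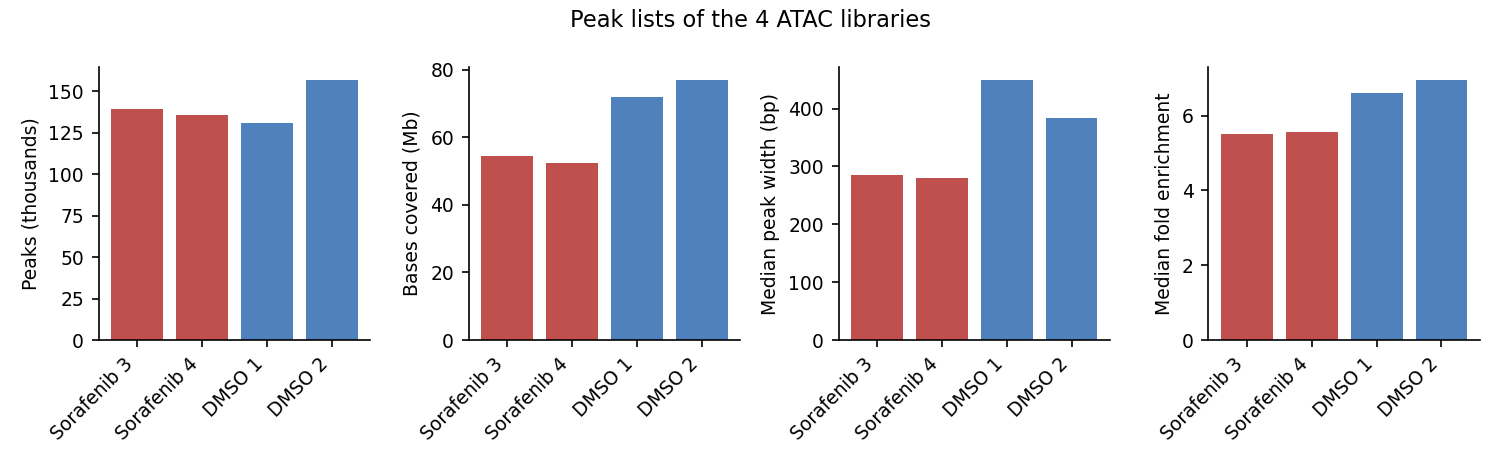
Number of peaks, bases covered (Mb), median peak width (bp) and median fold enrichment, 1 bar per ATAC library, sorafenib in red and DMSO in blue. The sorafenib bars stand at 54.5 and 52.3 Mb and the DMSO bars at 71.9 and 76.9 Mb, while the peak numbers overlap.

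Libraries of 1 treatment were more alike than libraries of different treatments. Of the regions held by either of a pair, 61.0% were common to both sorafenib libraries and 69.6% to both DMSO libraries, against 48.4 to 49.0% for the 4 mixed pairs. Over the 75610 shared regions the log2 fold enrichments of the sorafenib pair and the DMSO pair correlated at r = 0.90 each, against 0.67 to 0.69 between treatments, a description over regions that share libraries. The summits themselves moved little, by a median of 12 bp between the sorafenib libraries, 11 bp between the DMSO libraries and 13 to 15 bp between treatments. A shared region was split into 2 or more peaks in 9.24 and 10.9% of cases with sorafenib, against 2.94 and 4.48% with DMSO.

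Gained regions were fewer, narrower and weaker than lost ones. The median gained region was 316 bp wide with a fold enrichment of 4.50 and 4.49 in the sorafenib libraries, and the median lost region was 396 bp wide with 4.86 and 5.63 in the DMSO libraries. There were 1.87 lost regions per gained one among all, 2.71 where both holders reached a fold enrichment of 5 (3930 gained, 10649 lost), and 3.98 where both reached 10 (365 gained, 1451 lost). With 1 library left out the rule itself changed: a peak in 1 library was then enough in that group, while the other group still needed both. Without sorafenib replicate 3 there were 33482 gained and 33578 lost regions, and without sorafenib replicate 4 there were 36905 and 32676. Without DMSO replicate 1 there were 15419 and 52393, and without DMSO replicate 2 there were 20823 and 37810. The unequal rule favours the group with 1 library, so these counts cannot show how stable the balance is. With peaks of a −log10 q of at least 5 only, 9437 regions were gained and 23988 lost. With each list held to its 131238 strongest peaks, the length of the shortest list, 14821 were gained and 22976 lost, 1.55 lost per gained.

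Gains and losses differed with gene density. On gene-rich chromosome 19, 711 regions were gained and 202 lost, 3.52 gained per lost one, and on gene-poor chromosome 4, 290 were gained and 2011 lost, 0.144 gained per lost one. Chromosomes 16, 17, 20 and 22 also gained more than they lost, at 1.6, 1.35, 1.37 and 1.24 gained per lost region, and every other chromosome lost more. Over 2541 windows of 1 Mb, the share of regions lost was 24.4% in windows with 0 to 2 gene starts, then 17.9, 12.8 and 9.21%, and 5.44% in windows with over 20 starts, while the share gained was 4.63, 5.80, 6.38, 6.34 and 7.56%. Lost regions per gained one thus stood at 5.26 in the poorest windows and 0.720 in the richest. The order of the density classes was the same with any single library left out, with 2.54 to 7.84 lost per gained in the poorest windows and 0.355 to 1.6 in the richest. On chromosome 19 gained regions outnumbered lost ones in each of those 4 cases, by 1.52 (without DMSO replicate 1) to 6.40 times, and on chromosome 4 lost regions outnumbered gained ones in each. Chromosomes 16, 17, 20 and 22 turned to more lost without DMSO replicate 1, at 0.751, 0.654, 0.663 and 0.601 gained per lost. A lost region then needed a peak in DMSO replicate 2 only, so that turn cannot be told apart from the changed rule. With the rule unchanged but only peaks of a −log10 q of at least 5, chromosome 22 also turned, at 149 gained and 169 lost regions. Chromosomes 16, 17 and 20 then stood at 1.02, 1.12 and 1.03 gained per lost, and chromosome 19 at 2.81. Lost regions per gained one then stood at 6.63 in the poorest windows and 1.02 in the richest. Across windows, the gained minus the lost share correlated with the number of starts at r = 0.42 and rho = 0.48, a description, since windows share the same 4 libraries and base composition.

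**Figure D2:**
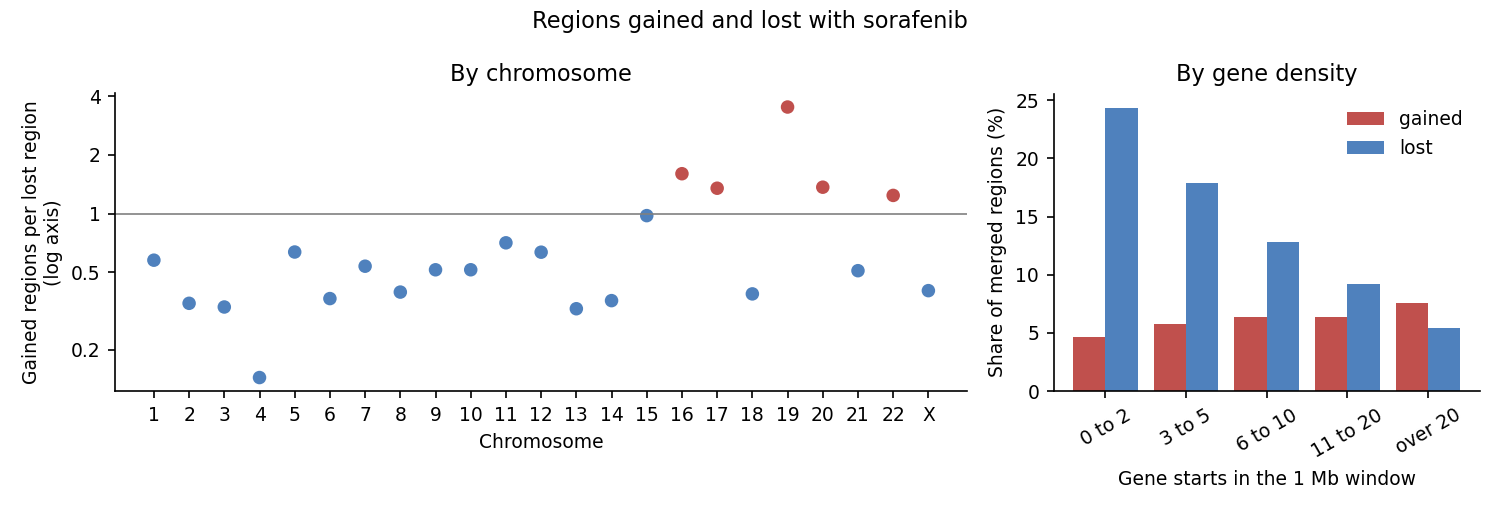
Left, gained regions per lost region on each chromosome (log axis, 1 point per chromosome, red above 1). Right, the share of merged regions gained (red) and lost (blue) in 1 Mb windows by their number of gene starts: lost regions make up 24.4% in the windows with 0 to 2 starts and 5.44% in those with over 20.

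Gains and losses were uneven within chromosomes too. The first 40 Mb of chromosome 5 held 653 gained and 503 lost regions, 1.30 gained per lost, and the rest of that chromosome 649 and 1547, 0.420 gained per lost. The 1 Mb from 50 to 51 Mb of chromosome 19, with 30 gene starts, gained 32 regions and lost 1, while that from 117 to 118 Mb of chromosome 3, with 5 starts, gained 1 and lost 33. Single windows did not all follow gene density: of the 5 windows with the most gained over lost regions, 3 were on chromosome 5 with few starts, 15 to 16 Mb (5 starts, 32 gained and 7 lost), 6 to 7 Mb (10 starts, 35 and 10) and 10 to 11 Mb (11 starts, 43 and 16). By distance, within 250 bp of a start 82.0% of regions were shared, 1.85% gained and 2.53% lost, and beyond 50 kb 28.0% were shared, 6.78% gained and 15.6% lost. Promoters, within 1 kb of a start, made up 4.62% of gained, 3.08% of lost and 18% of shared regions.

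The strongest gained regions lay away from promoters of protein-coding genes. Ranked by fold enrichment, the first was in a gene desert whose nearest protein-coding gene is SI (sucrase-isomaltase, a gut enzyme), 1596 kb from its start, at chr3:163481637-163482117 with 22.6 and 24.2 in the sorafenib libraries. It was followed by a region inside DLG2 (a synaptic scaffold) at chr11:85495847-85496673 with 21.8 and 20.05, and one 18.1 kb from BET1 (a Golgi transport SNARE) at chr7:94022421-94023064 with 20.97 and 20.15. A region at chr17:14373645-14374277, 72.6 kb from HS3ST3B1 (a heparan sulfate sulfotransferase) and at the start of LROMI1, stood at 19.9 and 21.1. Others of the first 10 lay nearest to MYL2, OR5AC2, DYRK1A, LOC124904790 and GFRA2.

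The strongest lost regions were as distal. A region 70.4 kb from RASSF9 (a RAS association domain protein), at chr12:85765319-85766020, had a fold enrichment of 20.3 and 22.9 in the DMSO libraries. A second region nearest to SI, at chr3:164683364-164683893, stood at 16.8 and 27.4; the nearest protein-coding gene was thus the same for a strong gained and a strong lost region. A region inside RERE (a nuclear receptor corepressor), at chr1:8733328-8734008, stood at 18.2 and 24.7. The other 7 lay nearest to TECRL, OPRK1, LINGO2, RNGTT, NUDT12, DNM3 and PDE1A.

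Of regions open in all 4 libraries, those at promoters had the highest median change, while the balance of higher and lower calls depended on the scale. Shared regions were set against the median shared region of their library, since that median itself was lower with sorafenib, by -0.36 in log2 fold enrichment and by -0.53 in log2 covered bases; the median fold enrichments were 8.26 and 8.12 with sorafenib, against 9.31 and 11.8 with DMSO. On that scale limma with Benjamini-Hochberg adjustment called 12747 regions higher with sorafenib (16.9%) and 7628 lower (10.1%). The split depended on the scale: without centring 1674 were higher and 13525 lower, after quantile normalization 7583 and 8515, and by the summit pileup, the stacked reads centred in the same way, 22569 and 15456. Of the regions called higher, 67.2% were called higher by pileup too and 509 were called lower there. Leaving out DMSO replicate 2 gave 7484 higher and 3854 lower, and leaving out DMSO replicate 1 gave 8603 and 3752.

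Among the 13034 shared promoter regions the median log2 change was 0.31, with 25.3% called higher and 2.10% lower, against 0.07 with 14.5 and 10.3% at 1 to 50 kb, and 0.04 with 16.2 and 14.7% beyond 50 kb. The median promoter region stood at a fold enrichment of 10.5 and 10.2 with sorafenib, against 9.96 and 12.1 with DMSO, so the sorafenib values lay inside the DMSO range before centring. Beyond 50 kb the medians were 8.04 and 7.95 with sorafenib, against 9.82 and 12.5 with DMSO. Promoters stayed the place with the highest median change under each alternative: -0.05 without centring against -0.29 and -0.32 farther out, 0.22 against -0.02 and -0.04 after quantile normalization, and 0.44 against 0.12 and -0.10 by pileup. The calls did not keep their balance: without centring 1.24% of promoters were higher and 4.70% lower, against 2.85 and 23.6% beyond 50 kb. After quantile normalization the shares were 12.8 and 2.65% at promoters, against 10.0035 and 15.9% beyond 50 kb, and by pileup 52.1 and 5.52%, against 19.3 and 29.9%. With a single library left out, the share of promoters called higher was 12.5% (without DMSO replicate 2) to 17.2%, and the share lower 0.951 to 1.86%.

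**Figure D3:**
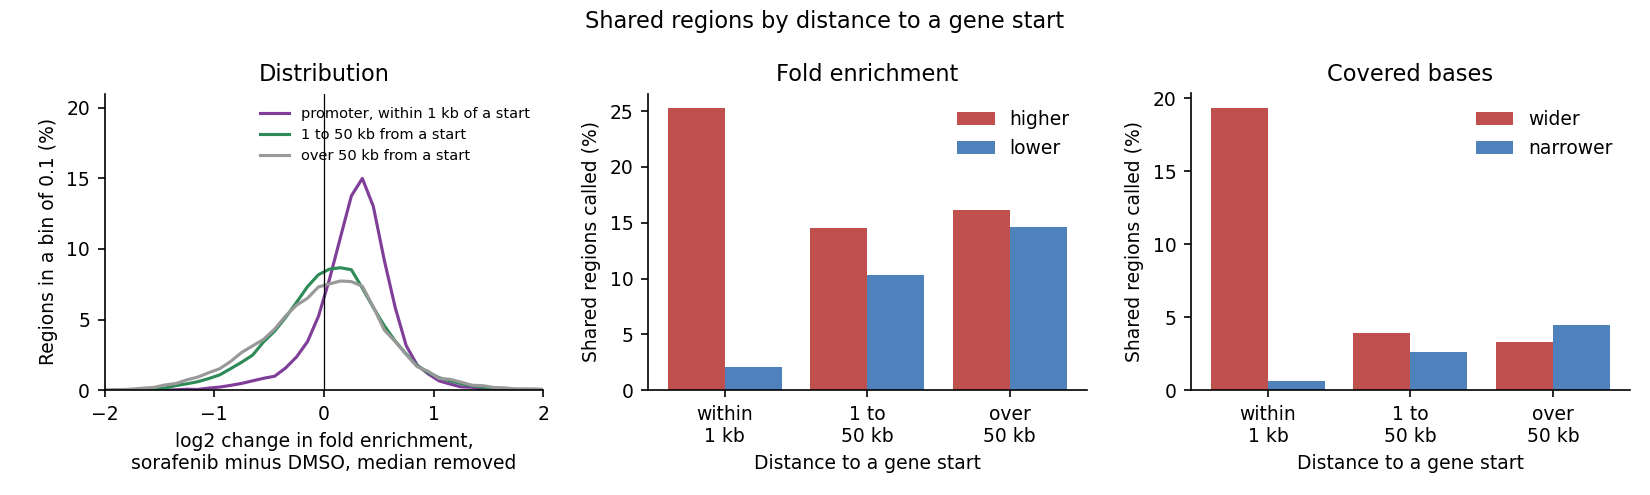
Left, distribution of the centred log2 change in fold enrichment (percent of regions per bin of 0.1) for shared regions in 3 places; middle and right, the share called higher or lower in fold enrichment and wider or narrower in covered bases. The promoter curve lies to the right, with a median of 0.31, and 25.3% of promoter regions are called higher.

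Widths moved the same way. Relative to the median shared region, 4884 regions were wider with sorafenib (6.46%) and 2144 narrower (2.84%), and 19.3% of promoter regions were wider against 3.27% of those beyond 50 kb. In bases, the median promoter region covered 876.5 and 859 bp with sorafenib, against 1000 and 992 bp with DMSO, and the median region beyond 50 kb covered 396 and 385 bp, against 619 and 599 bp. Without centring 412 were wider and 11029 narrower. No width call survived leaving out any single library, each of which gave 0 wider and 0 narrower regions, with 12086 to 15474 wider and 4711 to 9079 narrower at an unadjusted p under 0.05.

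The largest rises at shared regions were again distal. Each of the 10 kept its call without centring and by pileup, but they were picked as extremes of these same values, so this is no separate support. A region 137 kb from SLC1A3 (a glutamate transporter), at chr5:36458923-36459869, had a fold enrichment of 16.4 and 14.6 with sorafenib, against 2.44 and 3.4 with DMSO (log2 change 2.79, SE 0.22, limma adjusted p = 4.25e-05). A region 8.24 kb from RAD54L (a recombination repair helicase), at chr1:46238670-46239447, had 18.8 and 17.8 with sorafenib, against 3.18 and 4.59 with DMSO. Near NETO1 (a kainate receptor partner), at chr18:72895540-72895942, the values were 20.6 and 22.3 with sorafenib, against 4.04 and 5.22 with DMSO. The gap between the groups in these 3 follows from picking the largest rises. The remaining 7, nearest to RBM4, ARPP21, MICU3, DLG3, FGF18, LRRC4C and RAI2, had log2 changes of 2.42 to 2.57.

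The 10 largest falls, picked in the same way, also kept their calls without centring and by pileup, with the same limit. A region 75.7 kb from GIMD1, at chr4:106444433-106445070, had a fold enrichment of 4.95 and 3.64 with sorafenib, against 17.1 and 26.3 with DMSO (log2 change -1.96, SE 0.21, limma adjusted p = 0.000158). A region 616 kb from DAB2 (an endocytic adaptor), at chr5:40041192-40042053, had 4.18 and 4.10 with sorafenib, against 17.9 and 22.1 with DMSO. Those nearest to DACH1, ANKS1B, POT1, PXDC1, ERMARD, MOCS2 and NID1 had changes of -1.85 to -1.89.

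In width, the extremes were a region inside ARNT2 (a partner of the aryl hydrocarbon and hypoxia receptors), which covered 1115 and 1117 bp with sorafenib, against 209 and 205 bp with DMSO, and a region inside UST, nearest to the start of TAB2, which covered 159 and 158 bp, against 1715 and 1379 bp. LTF, SVIL, PCDHB6 and MEMO1 followed on the wide side. On the narrow side came FTH1 (ferritin heavy chain, the iron store), with 236 and 194 bp with sorafenib, against 2164 and 1969 bp with DMSO, then CAPN12, DUSP10 and LRRTM3. The FTH1 region, at chr11:61961568-61963763, starts beyond the end of the gene and lies within BEST1, so it cannot be assigned to either.

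For named genes, the region read was the strongest shared one within 1 kb of a start, or within the gene span and 2 kb where the start table lacks the gene, which holds for 107 of the 378 genes and for 29 of the 88 called in fold enrichment. For those 29 the region need not be a promoter: FOSL1, BATF3, NR4A2, ETV5, DUSP5, PSPH, NUPR1, PHLDA3, FDFT1, SQLE, NDRG1, FTH1, OAS2, CCN1, TEAD4, SP6, H4C3, CA11, CA13, DNMT3L, CDH1, KRT19, COL3A1, DCN, TAGLN, TWIST1 and SNAI2 are among them. Across 23 lists, calls are centred as above, and the counts without centring, after quantile normalization and by pileup follow in that order. Of all shared promoter regions, 25.3% were higher and 2.10% lower on the centred scale. In the other scalings those shares were 1.24 and 4.70%, 12.8 and 2.65%, and 52.1 and 5.52%. Of the genes in the series' title, KLF4 rose and DNMT1 did not. The KLF4 promoter region (chr9:107489407-107490515) had a fold enrichment of 11.7 and 10.6 with sorafenib, against 6.86 and 8.71 with DMSO (log2 change 0.89, SE 0.19, limma adjusted p = 0.00523), the groups did not overlap, as in 41.4% of all shared regions with sorafenib on top and 24.5% with sorafenib below on the centred scale, and the call kept an adjusted p of at most 0.0271 with any library left out. It was 0.53 without centring, at an adjusted p of 0.168. KLF4 RNA averaged 652 ± 37.6 normalized reads with sorafenib and 80.8 ± 4.77 with DMSO (SD, n = 3 each).

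At DNMT1, the maintenance DNA methyltransferase, the region chr19:10193783-10195424 stood at 10.9 and 11.6 with sorafenib, against 11.9 and 16 with DMSO, a change of 0.06 after centring (adjusted p = 0.781), of -0.30 without centring and of 1.17 by pileup, so the direction was set by the scale. Its RNA was 6520 ± 157 with sorafenib and 6802 ± 175 with DMSO (limma adjusted p = 0.328). Neither MT1G nor CA9, the hypoxia-inducible carbonic anhydrase, had a shared region. Each had a region in 1 library only, while MT1G RNA averaged 180 ± 19.8 normalized reads with sorafenib and 0 with DMSO, and CA9 RNA 4.80 ± 4.62 with sorafenib and 282 ± 129 with DMSO.

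In the metallothionein cluster on chromosome 16, the shared regions of MT1E, MT1X and MT2A were called wider and higher in centred stacked reads. Such calls were common: of all shared promoter regions 19.3% were called wider and 52.1% higher by pileup. Width calls have the limit given above. Of 17 metallothionein and zinc transport genes, 10 had a shared region, of which 1 was higher and 1 lower in fold enrichment (0 and 2, 0 and 1, 6 and 1). Of these regions 5 were wider, those of MT1E, MT1X and MT2A and, outside the cluster, of the zinc transporters SLC39A10 and SLC39A14. At MT1X (chr16:56681866-56684095) fold enrichment was 7.06 and 8.13 with sorafenib, against 15.4 and 18.7 with DMSO (log2 change -0.80, limma adjusted p = 0.00487), and the fall held with any library left out. The pileup at the summit was 227 and 267 with sorafenib, against 159 and 337 with DMSO, so the groups overlapped. After centring it was 0.83 higher with sorafenib on the log2 scale (limma adjusted p = 9.45e-07). That rise rests on the centring, since the median shared pileup was 47 and 46 with sorafenib, against 57 and 108 with DMSO. The local background that divides the MT1X pileup was 31.3 and 32.0 with sorafenib, against 9.39 and 17.1 with DMSO.

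The MT1X region covered 2060 and 2090 bp with sorafenib, against 1037 and 1059 bp with DMSO. MT2A (chr16:56608139-56609429), whose promoter holds the 8 TGCNCNC matches shown above, covered 1257 and 1210 bp with sorafenib, against 426 and 474 bp with DMSO. The MT2A pileup was 321 and 290, against 145 and 300, overlapping values before centring. Its fold enrichment, 5.48 and 5.22 with sorafenib, against 3.73 and 4.92 with DMSO, was called higher by 0.68, a call lost with any library left out. The gained MT1B region lay across the gene start at chr16:56651705-56651904, with a weak fold enrichment of 3.38 and 2.74. RNA rose at 9 of the 12 list genes tested and fell at 2, where limma called 34.4% of all 14915 genes tested higher and 35.8% lower. It rose to 59864 ± 2963 normalized reads at MT2A with sorafenib, against 5878 ± 704 with DMSO, to 5546 ± 660 at MT1X, against 51.2 ± 8.63, and to 794 ± 78.9 at MT1B, against 1.02 ± 0.968. The copies are near identical, so reads can be split between them and single-gene values are uncertain.

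AP-1 and immediate early genes held several of the regions called higher, beside 25.3% higher and 2.10% lower for all shared promoter regions. By pileup those shares were 52.1 and 5.52%. Of 12 AP-1 and partner genes with a shared region, FOS, FOSB, FOSL1, FOSL2 and BATF3 were higher and JDP2, an AP-1 repressor, was lower (1 and 1, 5 and 1, 9 and 0), and only the FOSB call survived with each library left out. FOSB (chr19:45468872-45470688) had a fold enrichment of 7.40 and 7.04 with sorafenib, against 4.11 and 3.92 with DMSO (log2 change 1.21, SE 0.24, limma adjusted p = 0.00312), the one member still higher without centring, and its pileup was 206 and 183, against 91 and 136. The groups did not overlap on either measure. JUN, the partner of all FOS proteins, had 9.0 and 8.26 with sorafenib, against 8.31 and 8.44 with DMSO, overlapping values, while its RNA averaged 13165 ± 603 with sorafenib and 910 ± 61.1 with DMSO. ATF3, a stress-induced member of the same class, had no shared region, at an RNA level of 5256 ± 147 with sorafenib and 292 ± 20.1 with DMSO.

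Of 14 immediate early genes, all with a shared region, EGR1, NR4A1, NR4A2 and NR4A3 were higher and none was lower (0 and 1, 3 and 1, 9 and 0). EGR1, a zinc finger factor that mitogens induce within minutes, had 8.83 and 9.92 with sorafenib, against 6.01 and 7.18 with DMSO (log2 change 0.87, limma adjusted p = 0.00918, at most 0.0497 with a library left out). The 3 NR4A orphan receptors did not keep the call throughout, with adjusted p of up to 0.14 (NR4A1), 0.0721 (NR4A2) and 0.12 (NR4A3). In width, NR4A2 and IER3 were wider and MYC narrower, and a weak gained region lay within the MYC span, at 2.30 and 2.32 in the sorafenib libraries. RNA rose for 8 of 11 tested in this list and for 10 of 13 AP-1 genes, beside 34.4% of all genes tested. EGR1 RNA rose to 960 ± 102 normalized reads with sorafenib, against 17.8 ± 3.51 with DMSO.

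NF-kB target genes rose almost throughout in RNA, and fewer of their regions were called. Beside them, 25.3% of all shared promoter regions were higher and 2.10% lower, and 52.1 and 5.52% by pileup. Of 17 with a shared region, CXCL1, CXCL3, ICAM1, BIRC3 and PTGS2 were higher in fold enrichment and IL1B was lower (0 and 1, 5 and 1, 10 and 1), with CXCL3 and BIRC3 stable to leaving out each library. BIRC3, an inhibitor of apoptosis, had 19.5 and 19.2 with sorafenib, against 14.5 and 17.5 with DMSO (log2 change 0.64, SE 0.12, limma adjusted p = 0.00205). CXCL3, a neutrophil chemokine, had 17.2 and 16.4 with sorafenib, against 13.4 and 16.8 with DMSO; DMSO replicate 2 lay between the sorafenib libraries, and the call of 0.52 rests on the centring.

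ICAM1, the leukocyte adhesion receptor, differed most plainly in stacked reads. Its promoter region (chr19:10270365-10271404) had a pileup of 88 and 89 with sorafenib, against 18 and 34 with DMSO, 2.54 higher on the centred log2 scale. Its fold enrichment was 8.53 and 8.73 with sorafenib, against 5.49 and 7.04 with DMSO, and the call at an adjusted p of 0.0118 was lost without DMSO replicate 1 or DMSO replicate 2 (at most 0.0514). A second region just downstream, at chr19:10271521-10271922, was gained at 5.01 and 3.49, and CCL20, a chemokine for immature dendritic cells, gained one across its start at 5.18 and 5.17. IL1B, the cytokine, had 6.84 and 8.41 with sorafenib, against 13.9 and 16.1 with DMSO, a fall that single libraries could undo (adjusted p up to 0.137). RNA rose for 18 of the 19 tested, beside 34.4% of all genes tested, and LIF was lower. IL1B was among the 18, at 136 ± 5.34 normalized reads with sorafenib and 2.01 ± 1.93 with DMSO.

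**Figure D4:**
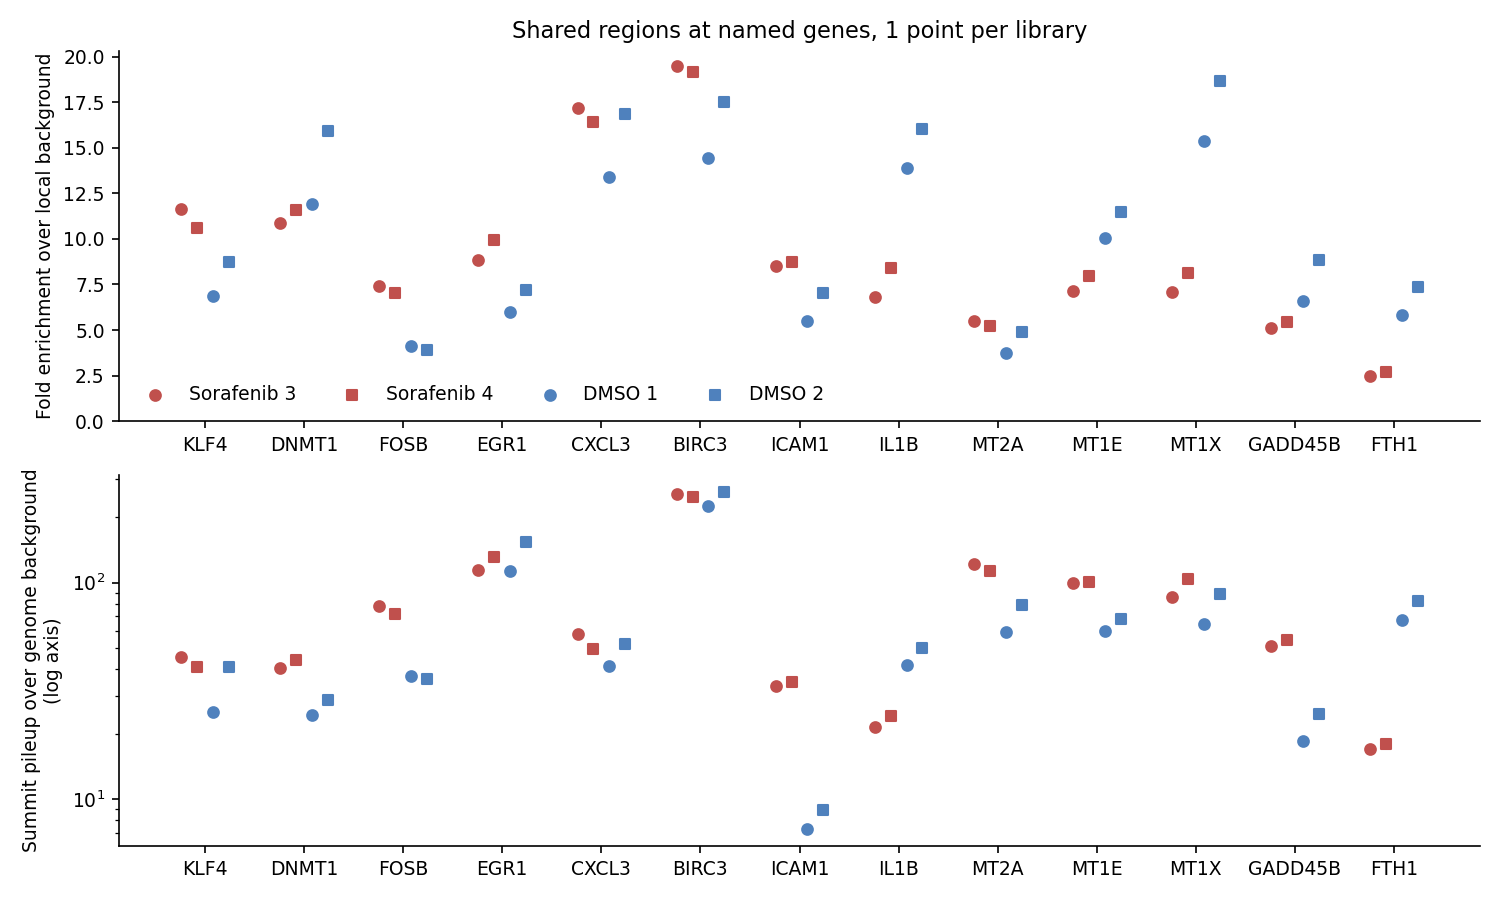
Fold enrichment (upper panel) and summit pileup over the genome background (lower panel, log axis) at the shared region of 13 named genes, 1 point per ATAC library, sorafenib in red and DMSO in blue. KLF4, FOSB and ICAM1 have both sorafenib points above both DMSO points in fold enrichment, while MT1X has them below, at 7.06 and 8.13 against 15.4 and 18.7.

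Genes that ERK signalling switches on, and the KLF and SP factors, had 6 regions each called higher and none lower, beside 25.3% higher and 2.10% lower for all shared promoter regions. Of 19 ERK output genes, DUSP5, ETV1, ETV5, PHLDA1, HBEGF and AREG were higher (0, 5 and 10 in the other scalings, 0 lower in each), and DUSP5 and ETV1 kept the call with each library left out. DUSP5, a nuclear ERK phosphatase, had just beyond the end of its span 13.4 and 12.7 with sorafenib, against 9.08 and 11.4 with DMSO, and ETV1, an ETS factor, 12.9 and 12.2, against 8.99 and 11.7; neither pair of groups overlapped. RNA rose for 14 of 19 tested and fell for 2, while 34.4% of all genes tested were higher and 35.8% lower. Of 18 KLF and SP genes KLF4, KLF5, KLF6, KLF7, SP4 and SP6 were higher (0, 5 and 12, 0 lower in each, and 1 of the 6 with the opposite sign by pileup), KLF4 alone with each library left out, and RNA rose for 8 and fell for 3 of 18.

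In stress programmes, region and RNA calls differed gene by gene. Of 21 ATF4 amino acid response genes, TRIB3, ASNS, PSAT1 and PSPH were higher and SLC7A5 and NUPR1 lower (0 and 3, 3 and 2, 15 and 0), and PSAT1 and PSPH, both of serine synthesis, kept the call with each library left out. A region within the PSPH gene span (chr7:56033639-56034733) had 16.8 and 19.4 with sorafenib, against 10.1 and 14 with DMSO (log2 change 0.96, limma adjusted p = 0.000718), with RNA of 899 ± 31.7 and 543 ± 21.6. PSAT1 had 17.3 and 15.8 with sorafenib, against 11.5 and 15 with DMSO, while its RNA fell to 3840 ± 94.8, against 4274 ± 106. SLC7A5, a leucine transporter, was lower by -0.85 in fold enrichment and higher by 0.14 in pileup.

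Among 18 p53 targets SESN1, XPC, TIGAR and PHLDA3 were higher (0, 3 and 9, 0 lower in each), XPC at -0.00 without centring, and SESN1 and TIGAR held with each library left out. TIGAR, a fructose bisphosphatase, had 20.6 and 20.7 with sorafenib, against 12.4 and 18.3 with DMSO (log2 change 0.82, limma adjusted p = 0.000721), while its RNA was 34.8 ± 5.02 with sorafenib and 36.3 ± 3.59 with DMSO. GADD45B, a stress gene listed with the DNA demethylation factors, had more stacked reads over a wider region, with a pileup of 134 and 139 with sorafenib, against 46 and 94 with DMSO, and 1548 and 1766 bp, against 876 and 721 bp. Its fold enrichment, 5.11 and 5.46 with sorafenib, against 6.57 and 8.86 with DMSO, was not called, and its RNA was 7215 ± 349 with sorafenib and 320 ± 17.3 with DMSO.

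In 3 metabolic lists most genes fell in RNA, beside 35.8% of all genes tested. Regions of these lists were called higher more often than lower, as were all shared promoter regions (25.3% higher, 2.10% lower). Of 25 hypoxia and glycolysis genes, 8 were higher in fold enrichment (BHLHE40, NDRG1, EGLN3, ANKRD37, PFKFB4, PGK1, LDHA and KDM3A) and none lower (0, 4 and 17, 0 lower in each), while RNA fell for 20 of 26 and rose for 4. LDHA, lactate dehydrogenase, kept its call with each library left out, at 13.7 and 12.3 with sorafenib, against 8.94 and 11.6 with DMSO, and its RNA fell to 18796 ± 519, against 42397 ± 998. SLC16A3, the lactate exporter, covered 1738 and 1783 bp with sorafenib, against 809 and 803 bp with DMSO, with RNA of 2177 ± 242 and 7229 ± 209.

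Of 21 sterol synthesis and uptake genes, 8 were higher (among them MVD, FDFT1, SQLE, CYP51A1, SC5D, MSMO1 and NSDHL) and none lower; without centring 0 were called either way, after quantile normalization 5 were higher, and by pileup 8 were higher and 3 lower, with 1 of the first 8 turned in sign. MSMO1 and SC5D, 2 late enzymes of cholesterol synthesis, kept the call with each library left out. MSMO1 had 17.1 and 16.4 with sorafenib, against 12 and 15.7 with DMSO, with RNA of 804 ± 42.8 and 2090 ± 51.8, and RNA of the list fell for 20 of 21. Of 20 NRF2 antioxidant genes, NFE2L2, GCLC, GCLM, PGD and TALDO1 were higher and FTH1 lower (0 and 1, 2 and 1, 12 and 1), with RNA lower for 18. GCLM, of glutathione synthesis, had 14.5 and 14.3 with sorafenib, against 8.03 and 12.8 with DMSO (adjusted p = 0.0031), and its call held with each library left out. The region counted as lower for FTH1 is the one within BEST1 described above.

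Replication-dependent histone genes, packed on chromosomes 1 and 6, were called in width more than in fold enrichment. Their 30 genes with a shared region share 23 distinct regions, of which 13 were wider and 1, at H4C3, was higher in fold enrichment; by pileup 12 of the 30 genes were higher, and in the other scalings 0 and 1. Of all shared promoter regions 19.3% were called wider and 52.1% higher by pileup, and width calls have the limit given above. The 23 regions covered a median of 1347 and 1338 bp with sorafenib, against 1283 and 1304 bp with DMSO. The median shared promoter region covered 876.5 and 859 bp, against 1000 and 992 bp, and the median of all shared regions was 445 and 436 bp, against 641 and 628 bp. In the polyA RNA, values rose for 25 of 25 tested, beside 34.4% of all genes tested. RNA of these genes without a polyA tail was not measured, so the rise holds for the polyA part only.

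The remaining lists held few calls. Of 22 interferon-stimulated genes, OAS3, IFIH1 and RIGI were higher and OAS2 lower (0 and 1, 2 and 1, 13 and 1); the RNA sensor IFIH1 and the antiviral synthetase OAS3 held with each library left out. OAS3 had 16.3 and 15.5 with sorafenib, against 10.1 and 12.1 with DMSO, and RNA of 3660 ± 166 and 5255 ± 104. Of 16 YAP and TEAD targets, CCN1, CCN2, AMOTL1, AMOTL2, TEAD4 and F3 were higher (0 and 0, 2 and 0, 8 and 1), 2 of them with the opposite sign by pileup and none of them in every case with a library left out.

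Of 9 carbonic anhydrases CA5B, CA11 and CA13 were higher (0, 3 and 5, 0 lower in each), CA5B and CA11 with each library left out; CA11 had 11.8 and 9.92 with sorafenib, against 5.77 and 8.88 with DMSO, with lower RNA, 207 ± 19 and 375 ± 23.2. Of 13 DNA methylation genes UHRF1, the partner of DNMT1, and MBD2, a methyl-CpG reader, were higher and DNMT3L lower (0 and 1, 0 and 1, 5 and 0), each lost with some library left out. Among cell type markers, epithelial CDH1 was higher and KRT19 lower, and mesenchymal TWIST1, SNAI2 and FN1 were higher and COL3A1, DCN and TAGLN lower, with KRT19 and COL3A1 stable; FN1 turned to -0.16 by pileup. KRT19, whose RNA averaged under 1 normalized read in either group, had 5.70 and 7.15 with sorafenib, against 14.1 and 19.7 with DMSO. In the other scalings the epithelial counts were 0 and 1, 1 and 1, and 2 and 2, and the mesenchymal ones 0 and 3, 1 and 3, and 6 and 2. On the centred scale no hepatocyte, endothelial or leukocyte marker was called in fold enrichment. Of hepatocyte markers 2 were lower without centring and 3 were higher and 2 lower by pileup, which also called 2 endothelial markers and 1 leukocyte marker higher. Gained regions also lay inside CA8, a carbonic anhydrase-like gene (11 and 9.53 in the sorafenib libraries), and inside GPC3, the glypican gene with no RNA read in any sample (11.8 and 10.7), whose span also held a lost region. Lost regions lay near the start of EPHA4, a receptor tyrosine kinase (9.82 and 12.7 in the DMSO libraries), inside TEAD1, a partner of YAP (10.9 and 12.7), and near the start of IFIT3, an interferon-induced gene, where LIPA overlaps it (8.42 and 9.08). None of these counts was tested against other genes; 25.3% of all shared promoter regions were called higher.

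Letters in the promoter windows differed by class. Of 236 windows on gained regions, 5.93% (14 windows) held the NF-kB word, against 0 of 321 windows on lost regions, which allows a share of up to 0.935%, and 1.61% of all windows. LROMI1, met above, was the strongest of them, followed by CXCL10 at 17.3 and 12.3 in the sorafenib libraries, with GBP4 at 8.72 and 4.21 and SGPP2 at 5.37 and 4.73. Only SGPP2 had enough RNA to be tested, at 34.5 normalized reads with sorafenib and 10.9 with DMSO (log2 change 1.73, limma adjusted p = 0.000711); CXCL10 RNA averaged 3.41 and 0, and GBP4 6.17 and 0.

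The AP-1 word TGANTCA stood in 16.5% of gained and 18.4% of lost windows, in 6.38% of shared windows called higher and 22.4% of those called lower, and in 7.68% of all. The GC box stood in 35.6% of gained and 24.6% of lost windows, in 72.3% of shared higher and 38.8% of shared lower ones, and the ETS word CCGGAAG in 4.24, 2.49, 20.6 and 3.74% of the same 4 classes, against 10.3% of all. Most of this was shared by all windows on shared regions, of which 68.7% held the GC box, 18.3% the ETS word and 6.62% the AP-1 word. The median CpG number in 300 bases was 27 in shared windows called higher, 6 in those called lower, 26 in all shared windows, 5 in gained and 4 in lost windows, and the GC box holds a CpG itself. A window counts once per word, on either strand, and may count for several words, so the GC box, ETS and CpG shares are not independent. A match is a run of letters, not a bound site.

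**Figure D5:**
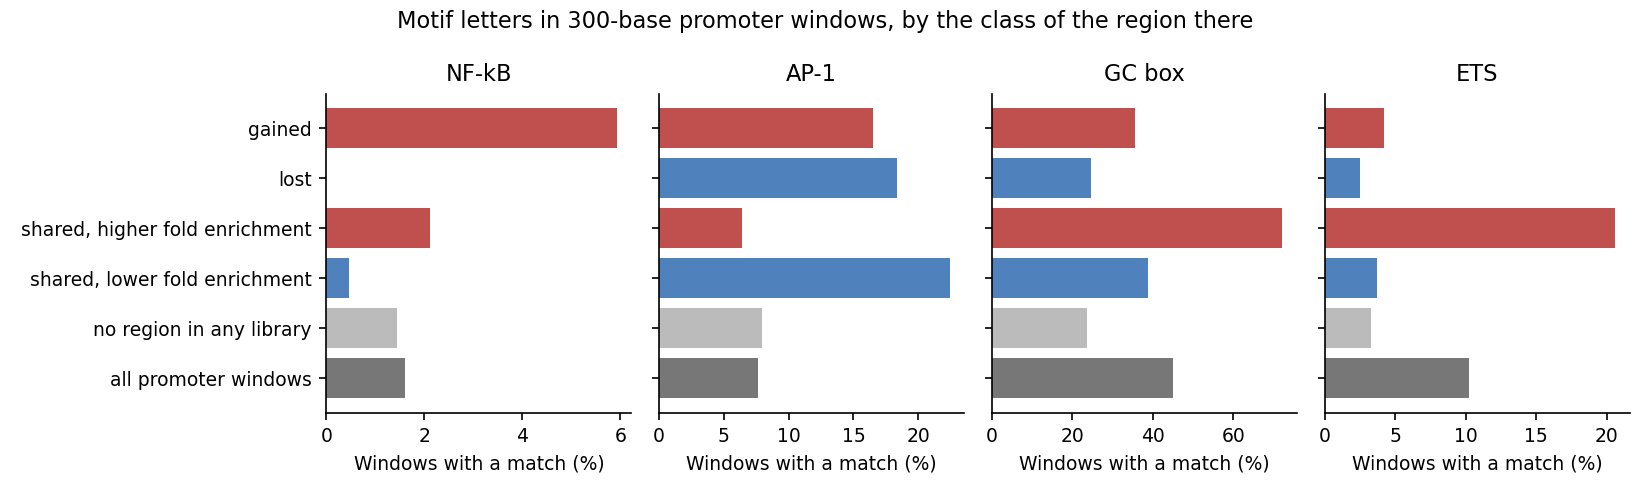
Share of 300-base promoter windows (percent) holding each of 4 words, by the class of the region on the window, gained and higher in red, lost and lower in blue, all others in grey. The NF-kB bar is 5.93% for gained windows and 0 for lost ones, and the GC box bar is 72.3% for shared windows called higher.

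RNA changes did not follow promoter gains and losses as a class. A gene was placed by a gained or a lost region within 1 kb of its start, whether or not a shared region lay there too. Of 251 tested genes with a gained promoter region, 75 were higher (29.9%, 95% Wilson interval 24.6 to 35.8) and 117 lower (46.6%), and of 304 with a lost one, 85 were higher (28.0%, interval 23.2 to 33.3) and 133 lower (43.8%), beside 32.7 and 38.8% of all 10373 tested genes with a known start. The intervals cover counting error only. Genes whose promoter region was higher in fold enrichment were higher in RNA in 35.6% and lower in 35.6% of 2708 cases, and those whose region was lower were higher in 29.7% and lower in 45.9% of 74. Where the region was narrower, 13.6% of 22 genes were higher and 68.2% lower, beside 33.1 and 39.7% of all 9481 tested genes with a shared promoter region. Those 22 rest on width calls, none of which survived leaving out any single library. Over those 9481 genes the promoter and RNA changes correlated at r = 0.06, a description across genes.

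Single genes ran both ways, and most of those named also had a region open in all 4 libraries within 1 kb of their start. With a gained region, only MT1B, CCL20, OLFML2A and ARID1A lacked such a shared region, and with a lost region only MARCHF9. With a gained region, MT1B, CCL20, UPP1 (uridine phosphorylase, 6200 ± 211 normalized reads with sorafenib and 1210 ± 86.7 with DMSO), SNAPC1 and ICAM1 rose most in RNA, and TTYH3, CSPG4, OLFML2A, PPP1R9B and ARID1A fell most, ARID1A, a subunit of the SWI/SNF chromatin remodeller, to 764 ± 4.86 with sorafenib, against 2451 ± 136 with DMSO. With a lost region, TRAF1 (an adaptor of TNF receptors, 450 ± 15 with sorafenib and 20.4 ± 1.09 with DMSO), IRF1 (an interferon regulatory factor, 2073 ± 145 and 314 ± 29.1), PSTK, ARRDC4 and ADIRF-AS1 rose, and WDR6, PDE4A, MARCHF9, LZTS2 and ZBTB7A fell, WDR6 to 1258 ± 56.6, against 4931 ± 265. ADIRF-AS1 is an antisense gene, and without stated strand its reads cannot be told from those of its partner.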

How the data were processed

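Open chromatin was measured by ATAC-seq in 2 sorafenib and 2 DMSO libraries, and polyA RNA in 3 samples of each. Per the submitters' processing notes, the tools used over the series include cutadapt, Bowtie2 2.4.1, Picard, SAMtools, MACS2 2.2.7.1, HISAT2 1.1.0, featureCounts 1.6.1 and DESeq2, with build hg38; which step used which setting is not given in the sources used here. The authors deposited 1 peak list per library, with positions, a score, a fold enrichment (a ratio to the local background), and −log10 p and −log10 q values for each peak. These are the authors' own values. Each deposited list reaches down to a −log10 q of 1.30. The RNA table holds a signal, read counts that the authors divided by size factors. Its values gave whole reads for 100% of entries (tolerance 0.001), between 16549330 and 21082356 reads per sample. Depth of the ATAC libraries is known only through the background pileup solved from the authors' fold enrichment and p (relative tolerance 0.0001).

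Peaks on chromosomes 1 to 22 and X were merged where they shared 1 bp. For shared regions, log2 fold enrichment and log2 covered bases were centred on the library's median and tested with limma 3.58.1 (R 4.3.3) over all 75610 regions, with Benjamini-Hochberg adjusted p under 0.05. RNA was tested with limma on log2(value + 1) where a gene averaged 10 or more, so fold changes of low genes are understated. Gene starts and promoter windows came from RefSeq, 34961 starts of 27195 genes, none on chromosome 8. Python 3.11.15 with scipy 1.17.1 did the rest. The models were tested on simulated data. Alternatives were edgeR 4.0.16 and DESeq2 1.42.0 on the recovered reads, other scalings, filters and left-out libraries; those by gene density, by place and for single list genes were chosen after seeing the data. The members and gene lists were chosen with earlier results of these data known. Named genes were the 4 of the series' title, the 10 strongest gained and lost regions, the 10 largest rises and falls, the 5 widest and narrowest shared regions, list members with gained or lost regions, 5 RNA rises and falls per promoter class, and the most abundant marker of each cell type; other list members with values, and the promoters CXCL10, GBP4, SGPP2 and LROMI1, were chosen after their values were seen. Results for a few named genes, and the list of liver transcription factors, are not reported here.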

Additional observations from a re-analysis of the deposited data

Results flagged for a closer look

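Mitochondrial DNA, outside the chromosomes compared, carried peaks in every library. Its highest pileup over the nuclear background pileup was 7587 and 7730 in the libraries of sorafenib replicates 3 and 4, against 2653 and 2542 in those of DMSO replicates 1 and 2. The means were 7659 ± 101 with sorafenib and 2598 ± 78.2 with DMSO (SD, n = 2 each), a 2.95-fold difference at an exact two-sided permutation p of 0.33, the smallest that 2 against 2 can give. The values were singled out because they stand above the control level in data that the comparisons above did not use, and the part of mitochondrial reads in those comparisons was not tested.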

How the results depend on the processing

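No paired analysis was possible because the titles number the sorafenib ATAC libraries 3 and 4 and the DMSO ones 1 and 2; the peak lists are numbered 1 and 2 in both groups, but no label says that those numbers pair cultures or days, and they were not used. For RNA, a replicate block gave 4992 genes higher and 5201 lower, while same-numbered samples correlated at -0.03, 0.03 and -0.06, so these samples share only a number. The causes of the changes that follow were not tested. Gained regions ranged from 15419 to 36905 and lost ones from 32676 to 52393 with 1 library left out, where a peak in 1 library was enough in that group. Regions higher in fold enrichment numbered 1674 without centring, 7583 after quantile normalization, 22569 by pileup, 2330 at an absolute log2 change of at least 1, and 7484 to 9572 with 1 library left out. Those lower numbered 13525, 8515, 15456 and 2052, and 3752 to 7208. Wider regions numbered 412 without centring, 2690 by the strongest peak and 0 with any library left out, and narrower ones 11029 without centring and 0 with any library left out. Of genes with a lost region within 250 bp of the start, 22.1% were higher in RNA. The difference in mean peak number, -6522 with all libraries, ranged from -19281 (without DMSO replicate 1) to 6238 (without DMSO replicate 2). Signs turned at DNMT1 (-0.30) and XPC (-0.0022) without centring, and by pileup at FN1 (-0.16), GADD45B (1.78), MT1E (1.15), MT1X (0.83) and SLC7A5 (0.14). Of 87 named regions in fold enrichment, 49 lost the call without centring, 13 after quantile normalization, and 18 to 36 with 1 library left out, while 51 named genes kept their RNA direction and call under every RNA alternative run. RNA calls were 5378 higher and 5079 lower by edgeR, and 5025 and 4906 by DESeq2. The number of ATAC libraries, 2 a group, and the deeper DMSO replicate 2 limit what these counts can show.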
